A study of Mus musculus with 10 samples.

Results

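Mouse embryonic stem (ES) cells that had already been through 2i and back to serum were placed in 2i again, and the expression of their genes was compared with that of cells left at the serum stage. The comparison rests on 4 of the series' 10 RNA-seq libraries, 2 of second 2i and 2 of serum return, chosen by their labels. Serum return cells spent more than 13 passages in 2i with leukaemia inhibitory factor (LIF) and then 6 passages in serum with LIF. Second 2i cells spent 13 passages in 2i/LIF, 6 in serum/LIF and 4 to 5 in 2i/LIF. The labels give 13 and not more than 13 for the earlier 2i culture of second 2i, and do not say that it was grown from the serum return that was sequenced. Both groups, like all others of the series, are ES cells with a reporter of Wnt/β-catenin activity, grown on gelatin with LIF and split every 48 h. In 2i the medium held inhibitors of GSK3 (3 µM) and of the ERK pathway (labelled PD, 1 µM). The medium change removes serum and adds both inhibitors at once, so their effects cannot be told apart. The labels name neither the line and its sex nor whether replicates came from separate cultures. A p-value here therefore reflects how much the sequenced libraries varied, and that may be technical. Original serum culture and its first 5 to 6 passages in 2i (first 2i), 2 libraries each, serve as the earlier round of the same medium change, and 2i for more than 13 passages (long 2i) is cited for a few levels.

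GSK3 marks β-catenin for destruction, so its inhibition lets β-catenin build up and join Tcf/Lef factors on Wnt target genes. Fibroblast growth factor (FGF) signals through the ERK cascade push ES cells toward differentiation and switch on feedback inhibitors of the Sprouty and Dusp families. Blocking both holds ES cells in a state called naive, known for high levels of factors such as Tfcp2l1 and Prdm14, for low de novo DNA methyltransferases and for weak expression of lineage genes, whereas serum cultures are more mixed.

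The 4 libraries held 18412529 to 27766338 reads counted in genes. Levels are given as CPM, a gene's count scaled to the depth of its library, for replicates 1 and 2 in that order or as mean ± SD (n = 2). They compare 1 gene between samples, not genes of different length. Ribosomal RNA precursor, counted as Rn45s, was uneven between the serum return replicates, at 2496 and 15480 CPM, against 5175 and 4879 CPM in second 2i, and counts of called genes with and without it were 9335 and 9334. 10 markers of ES cell identity summed to 7240 and 7390 CPM in serum return and to 7030 and 7210 CPM in second 2i. The sums hide changes of single genes. In the test given below 5 of the 10 were called higher in second 2i and 5 lower, 1 and 2 of them by at least 2-fold.

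The change of medium moved most genes. Of 14220 genes tested, 9335 differed between second 2i and serum return at an adjusted p under 0.05 in edgeR's quasi-likelihood test (65.6%). 4598 were higher in second 2i (32.3%) and 4737 lower (33.3%), and 1301 (9.15%) and 1832 (12.9%) of them by at least 2-fold. In the text, rose and fell stand for genes called in this test. The median log2 fold change over all tested genes was 0, and the counts for gene groups below are to be read against these shares. Both second 2i libraries lay above both serum return libraries for 5848 of the 14220 tested genes and below both for 5909. Groups without overlap were thus the common case, and statements below that libraries did not overlap are to be read against these counts.

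**Figure D1:**
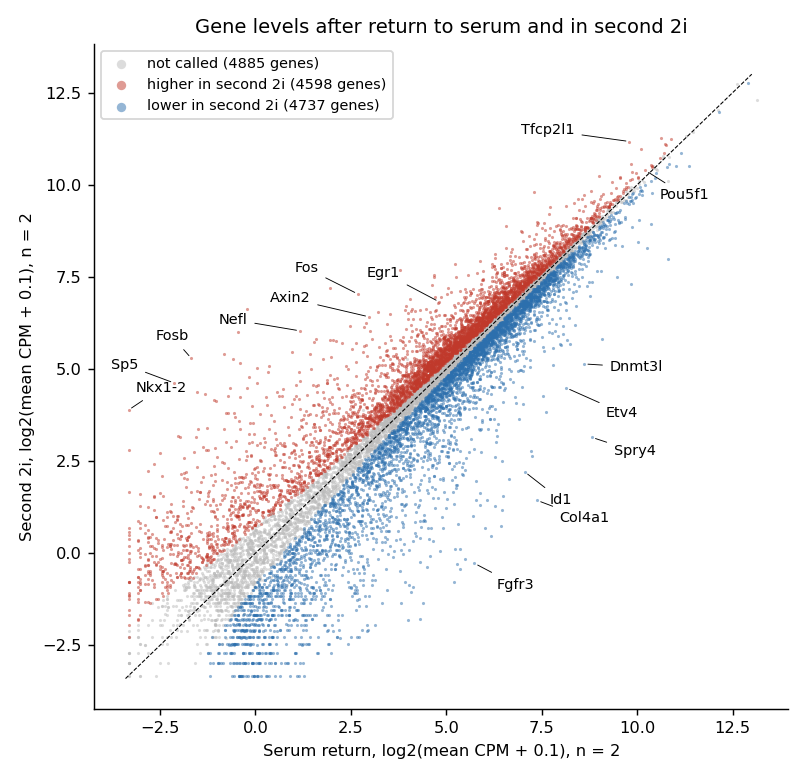
Mean level of each of the 14220 tested genes in serum return (x axis) and second 2i (y axis), both as log2(mean CPM + 0.1) over 2 libraries. Red points were called higher and blue points lower in second 2i, the dashed line marks equal levels, and the named genes are given with their values in the text.

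The strongest gains were genes nearly silent in serum return. Nkx1-2, a homeobox gene of the posterior embryo, had no counts in either serum return library and stood at 14.2 and 15.2 CPM in second 2i, at least 242-fold higher against a floor of 3 counts over the group. Sp100, a protein of nuclear bodies, was absent from both serum return libraries too and reached 6.7 and 7.01 CPM, at least 113-fold higher. Floors cover counting error only. No second 2i library of either gene overlapped serum return. Lrrc15, a leucine-rich repeat membrane protein, rose 137-fold from 0.395 and 1.12 to 99 and 97.6 CPM. The Lrrc15 fold was 87.5 without replicate 1 of serum return and 245 without replicate 2. Aspa, which deacetylates N-acetylaspartate, rose 100-fold from 0.61 and 0.651 to 65.3 and 61.6 CPM. Slit2, a secreted guidance cue, rose 90.1-fold from 0.466 and 0.465 to 44.5 and 40.6 CPM. Car8, the carbonic anhydrase-related protein, rose 83.3-fold, Spic, an Ets-family transcription factor, 67.4-fold and the T-box factor Tbx15 60.7-fold, to 20.8 ± 0.14, 38.6 ± 4.5 and 8.99 ± 0.78 CPM.

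The largest losses included genes of signalling, basement membrane and endothelium. Fgfr3, an FGF receptor, fell 72.9-fold from 51.3 and 55.2 to 0.926 and 0.527 CPM. Col4a1, a collagen of basement membranes, fell 64.1-fold from 159 and 175 to 2.89 and 2.32 CPM. Sox7, a factor of primitive endoderm and endothelium, fell 74.8-fold from 36.9 and 36.1 to 0.654 and 0.316 CPM, and 113-fold without replicate 1 of second 2i. For each of these the lower serum return library stood far above both second 2i libraries. Calca, the gene of calcitonin, fell 102-fold to 0.188 ± 0.042 CPM, Cyp11a1, the first enzyme of steroid synthesis, 82.1-fold to 0.187 ± 0.034 CPM, and the collagen-crosslinking enzyme Loxl2 56.1-fold to 1.28 ± 0.12 CPM. Miat, a long noncoding RNA, went from 5.31 ± 0.86 CPM to 3 counts over both second 2i libraries.

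Most Wnt/β-catenin targets rose. Of 17 tested members of a list of 20, 12 rose and 3 fell, with a median log2 fold change of 1.55. The median lay between 0.87 and 1.36 with 1 library left out, while 10 to 12 rose. Axin2, a feedback inhibitor of the pathway and its most used readout, stood at 7.86 and 7.68 CPM in serum return and at 85.3 CPM in both second 2i libraries, an 11-fold rise (log2 3.45, SE 0.082, edgeR adjusted p = 2.64e-18). Sp5, a zinc finger factor that β-catenin switches on, rose 192-fold from 0.0717 and 0.186 to 21.3 and 27.6 CPM. Since serum return held 6 counts of Sp5 in all, its fold was 127 without replicate 1 of serum return and 315 without replicate 2. Cdx1, a caudal homeobox factor, rose 8.22-fold from 4.99 and 6.37 to 41.2 and 51.3 CPM, and T (Brachyury), the mesoderm T-box factor, 19.3-fold from 0.108 and 0.093 to 2.34 and 1.79 CPM. In all 4 genes both second 2i libraries exceeded both serum return libraries.

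Other feedback genes of the pathway rose by less. Notum, which strips the lipid from Wnt proteins, rose 4.89-fold from 19.9 ± 0.92 to 97.1 ± 7 CPM, Tnfrsf19, a receptor gene, 4.05-fold to 13.5 ± 0.1 CPM and Tcf7, a partner of β-catenin, 2.07-fold to 67.9 ± 3.8 CPM. Nkd2, an antagonist that binds Dishevelled, went the other way and fell 7.55-fold to 0.455 ± 0.027 CPM, and the cyclin gene Ccnd1 fell 1.49-fold to 97 ± 1.7 CPM. Lef1, another partner of β-catenin, did not pass, at 1.12 ± 0.062 and 0.642 ± 0.061 CPM (edgeR adjusted p = 0.1). Tnfrsf19, Tcf7, Notum, Nkd2 and Ccnd1 were picked for naming after their values were seen.

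Among 37 tested ligands, receptors and other parts of the Wnt pathway, 15 rose and 11 fell (median 0.14). Wls, which carries Wnt proteins to the cell surface, rose 6.33-fold from 4.2 and 4.37 to 27.2 and 26.9 CPM, and the receptor Fzd8 4.54-fold from 0.795 ± 0.06 to 3.61 ± 1 CPM. The ligand Wnt6 fell 6.61-fold from 14 and 14.4 to 1.63 and 2.64 CPM. Sfrp1, a secreted Wnt antagonist, rose 2.84-fold from 207 ± 2.3 to 588 ± 8.3 CPM and was picked after its values were seen. β-catenin's own transcript, Ctnnb1, fell 1.19-fold.

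The sequences just upstream of Axin2, Sp5 and T were extracted, and those of Sp5 and T are shown. Among the listed Wnt targets with more than 3 counts in serum return, Sp5 and T had the largest folds. Sp8, a relative of Sp5 with 1 count in serum return and 0.654 and 0.633 CPM in second 2i, is given no fold. The 250 bases before each start site are from the RefSeq promoter table of build GRCm38.p6, which is a later build than that used for the counts, and capitals mark CTTTGA or its reverse complement TCAAAG, the core of the Tcf/Lef motif. Sp5 lies on the forward strand with the window at chr2:70474673-70474922, and T on the forward strand with the window at chr17:8434173-8434422.
Sp5: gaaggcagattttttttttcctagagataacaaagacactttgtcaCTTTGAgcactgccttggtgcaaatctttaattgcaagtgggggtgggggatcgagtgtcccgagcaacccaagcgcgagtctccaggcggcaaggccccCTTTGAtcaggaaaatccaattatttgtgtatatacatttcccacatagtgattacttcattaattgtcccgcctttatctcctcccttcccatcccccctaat
T: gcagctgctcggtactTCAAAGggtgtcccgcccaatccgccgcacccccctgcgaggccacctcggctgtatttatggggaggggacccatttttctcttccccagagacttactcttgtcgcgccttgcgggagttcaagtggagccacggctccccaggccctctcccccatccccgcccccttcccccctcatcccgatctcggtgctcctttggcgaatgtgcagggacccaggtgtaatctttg
The Sp5 window held the motif on the forward strand 204 and 104 bases before the start, and the T window on the reverse strand 234 bases before it. The Axin2 window of the same length held none and is not shown. CTTTGA on either strand was found in 13.8% of the 32851 promoter windows in the table and in 28.6% of the 21 windows of listed Wnt targets. Counted by gene, at least 1 window held it for 15.8% of 27025 genes and for 46.2% of 13 listed targets. The list held 20 targets, and those without a window matched by symbol were left out of this share. These are matches of letters, not binding sites.

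Targets of the ERK pathway moved in opposite directions. Spry4, a Sprouty inhibitor of the pathway, dropped 51.5-fold from 441 and 461 to 9.1 and 8.38 CPM (log2 -5.69, SE 0.072, edgeR adjusted p = 3.01e-22). Etv4, an Ets factor, fell 12.7-fold from 274 and 293 to 22.4 and 22.3 CPM. Dusp6, the phosphatase that switches ERK off, fell 9.57-fold from 181 and 189 to 19.9 and 18.7 CPM. In each the second 2i libraries lay close to each other and far below serum return.

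Fos, Fosb and Egr1, immediate-early genes that ERK is known to induce within minutes, rose instead. Fos, a subunit of the AP-1 transcription factor, rose 20.5-fold from 6.96 and 5.72 to 132 and 131 CPM (log2 4.36, SE 0.11, edgeR adjusted p = 3.09e-18). Its relative Fosb rose 170-fold from 0.287 and 0.14 to 39.5 and 38.4 CPM, or 267-fold without replicate 1 of serum return. Egr1, a zinc finger factor, rose 4.02-fold from 28.4 and 27.7 to 116 and 110 CPM. The replicates of second 2i were nearly equal in all of them, and none overlapped serum return. No other group of the series came near these levels: over serum, first 2i and long 2i the group means of Fos were 1.74 to 5.04 CPM, those of Fosb 0.0945 to 0.329 CPM and those of Egr1 0.43 to 27.6 CPM.

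Of 21 tested ERK feedback and target genes 14 fell and 4 rose, and the median log2 fold change was -1.02. Beside Egr1, Fos and Fosb the list held 1 more gene that rose, the Sprouty relative Spred3, from 5.16 to 6.82 CPM on average, a call lost without replicate 1 of serum return (adjusted p = 0.248) or replicate 2 of second 2i (adjusted p = 0.361). Junb, the AP-1 partner, fell 2.03-fold from 32.6 and 40.8 to 16.2 and 19.9 CPM, and Ier2, another early gene, did not pass, at 287 and 336 against 294 and 340 CPM. Etv5, the close relative of Etv4, did not pass either (384 and 380 against 402 and 418 CPM, edgeR adjusted p = 0.0522), and passed when only the 4 libraries were fitted (adjusted p = 0.044). 4 early genes outside the list were read after these values were seen. Jun rose 3.02-fold to 8.01 ± 0.22 CPM and the phosphatase Dusp1 1.34-fold to 54.7 ± 1.2 CPM, the nuclear receptor Nr4a1 fell 1.49-fold to 51.8 ± 1.5 CPM, and Atf3 did not pass (5.44 ± 0.34 and 4.77 ± 0.19 CPM).

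The receptors and kinases of the pathway moved less. Of 23 tested components 10 fell and 7 rose, the latter 4 without replicate 1 of serum return, and the median was 0. Beside Fgfr3, the receptor Fgfr4 fell 4.82-fold from 5.7 and 6 to 1.69 and 0.738 CPM, or 7.85-fold without replicate 1 of second 2i. Mapk3, which encodes ERK1, fell 1.59-fold from 80 ± 6.7 to 50.5 ± 0.39 CPM, and the ligand Fgf4 rose 1.21-fold.

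**Figure D2:**
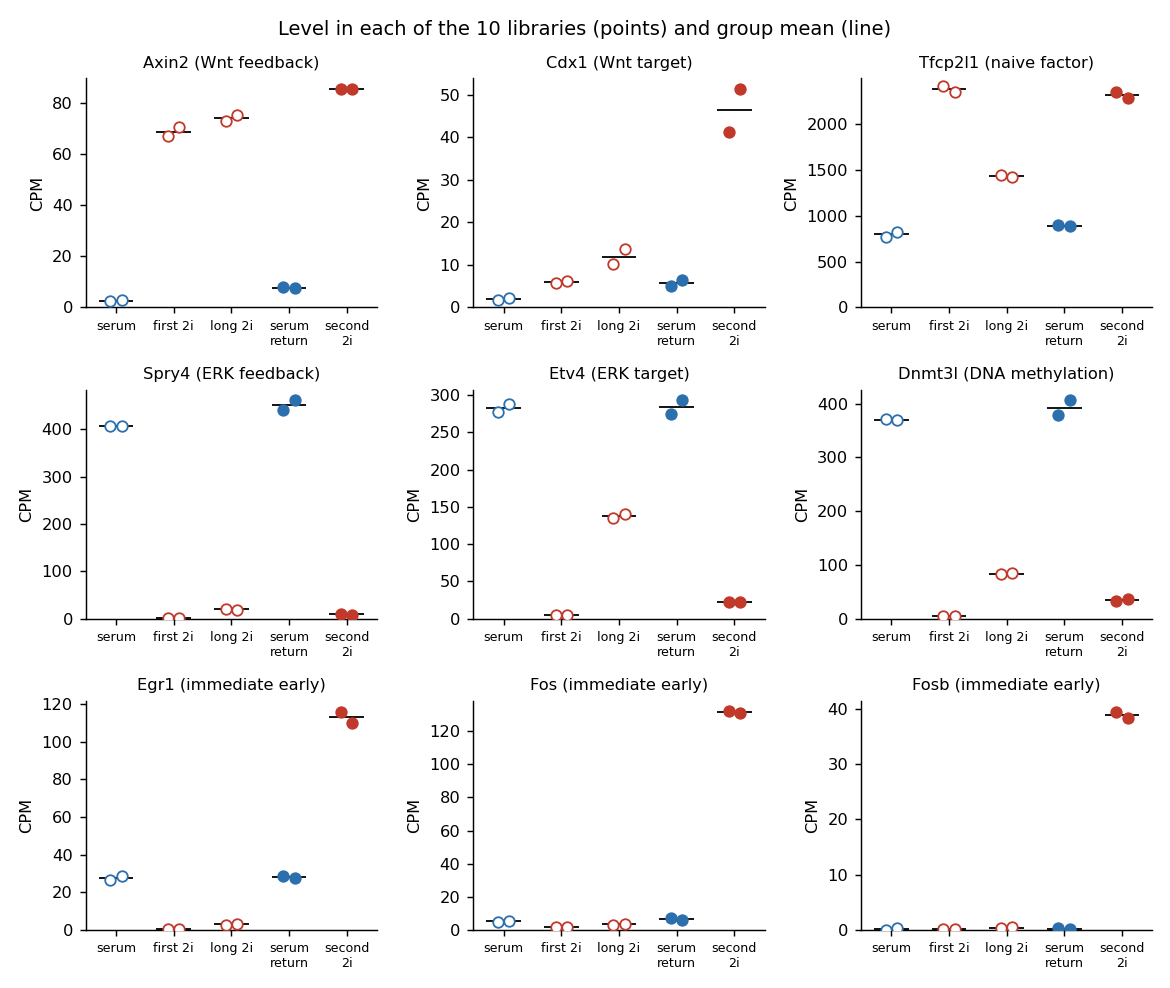
Level in CPM of 9 genes in each of the 10 libraries, with filled points for serum return and second 2i, open points for the other groups, blue for serum and red for 2i, and lines for group means (n = 2). Spry4, Etv4 and Dnmt3l are lower, and Axin2 and Tfcp2l1 higher, in every 2i library than in every serum library, and Egr1, Fos and Fosb are high in second 2i, at 113, 131 and 39 CPM on average.

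The naive pluripotency factors rose in most cases. Of 16 tested, 12 rose and 3 fell (median 0.46). Tfcp2l1, a factor that sustains self-renewal downstream of LIF, rose 2.6-fold from 893 and 887 to 2340 and 2280 CPM. Prdm14, which restrains FGF signalling and DNA methylation, rose 2.09-fold from 51.5 and 55.1 to 112 and 110 CPM. Klf4 rose 1.41-fold from 371 and 362 to 512 and 523 CPM and Esrrb, an orphan nuclear receptor and target of GSK3 inhibition, 1.27-fold from 987 and 1030 to 1250 and 1310 CPM. Klf2 rose 2.46-fold from 83 and 108 to 208 and 259 CPM, a call lost without replicate 1 of serum return (adjusted p = 0.0603) or replicate 2 of second 2i (adjusted p = 0.0526). The homeobox gene Gbx2 fell 7.72-fold from 122 and 135 to 16.5 and 16.7 CPM, against the direction of most of the list. Dppa3, which guards methylation in the zygote, rose from 0.61 and 0.186 to only 1.09 and 1.74 CPM, 3.32-fold, or 7.41-fold without replicate 1 of serum return.

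The core factors stayed at high levels in both media. Pou5f1 (Oct4) rose 1.13-fold from 1160 and 1220 to 1310 and 1370 CPM, a call lost without replicate 2 of second 2i (adjusted p = 0.054), and Nanog rose 1.4-fold from 949 and 902 to 1300 and 1290 CPM. Sox2 fell 1.2-fold from 728 and 743 to 618 and 612 CPM. Of 16 general pluripotency genes tested, 6 rose and 9 fell (median -0.19). Lin28a, the repressor of let-7 microRNAs, fell 4.1-fold from 242 ± 12 to 59.1 ± 3.4 CPM, Utf1, a chromatin factor of ES cells, 3.55-fold to 65 ± 8.6 CPM and Tdgf1, the Nodal co-receptor Cripto, 2.7-fold to 489 ± 4.5 CPM. Fbxo15, a target of Oct4 and Sox2, rose 2.43-fold to 269 ± 6 CPM.

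Genes of LIF signalling fell although LIF was in both media. Of 15 tested, 10 fell and 2, Tyk2 and Socs2, rose, the latter 0 to 1 with any 1 library left out, and the median was -0.4. The receptor Lifr fell 2.48-fold from 117 and 116 to 51.3 and 42.4 CPM. Socs3, the feedback inhibitor that Stat3 induces, fell 2.74-fold from 194 and 222 to 70.4 and 80.8 CPM, and the kinase Pim3 4.45-fold from 302 and 355 to 67.8 and 79.6 CPM. None of these overlapped between the groups. Stat3 itself fell 1.17-fold.

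Nodal, TGF-β and BMP genes were divided, with 7 that rose and 12 that fell of 24 (median -0.28). Id1, a BMP target, fell 29.4-fold from 130 and 136 to 4.03 and 5.01 CPM and Id2 7.28-fold from 8.47 and 9.21 to 1.2 and 1.21 CPM. Their relative Id3 rose 2.82-fold, from 12.2 and 16.1 to 36 and 43.1 CPM. Inhbb, an activin subunit, fell 13.7-fold from 194 ± 11 to 14.2 ± 1 CPM, while Fst, the activin antagonist follistatin, rose 7.85-fold from 0.985 ± 0.078 to 7.82 ± 0.2 CPM. Nodal rose 1.93-fold to 107 ± 4.5 CPM and its antagonist Lefty2 1.6-fold to 545 ± 23 CPM, and Lefty1 fell 1.8-fold to 66.2 ± 3.9 CPM.

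Genes of the formative and primed epiblast, the later stages of pluripotency, numbered 5 up and 7 down of 14 tested (median -0.62). Pou3f1 (Oct6), an epiblast factor, fell 20-fold from 4.2 and 4.65 to 0.163 and 0.264 CPM, the ligand Fgf15 20.1-fold from 3.16 and 3.58 to 0.109 and 0.211 CPM and Sox4 13.3-fold to 1.1 ± 0.088 CPM. Zic2, a zinc finger factor, rose 13.2-fold from 1.43 and 1.44 to 18.5 and 19.5 CPM. Otx2, the driver of exit from the naive state, stood at 12.8 ± 0.3 and 15.4 ± 0.098 CPM, a rise of 1.21-fold whose call was lost without replicate 2 of serum return (adjusted p = 0.068) or of second 2i (adjusted p = 0.0587). Fgf5 did not pass the filter, with 2 counts in serum return.

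Among 20 tested genes of DNA methylation and demethylation 9 rose and 10 fell (median -0.13), and the de novo machinery was on the falling side. Dnmt3l, the cofactor of the de novo methyltransferases, fell 11.2-fold from 378 and 406 to 33.5 and 36.6 CPM (log2 -3.48, SE 0.062, edgeR adjusted p = 4.83e-20). Dnmt3a fell 3.06-fold from 50.3 and 54.1 to 16.4 and 17.7 CPM and Dnmt3b 1.74-fold from 102 and 101 to 58.6 and 58 CPM. The groups of all 3 were apart. Of the maintenance machinery, Dnmt1 rose 1.11-fold, a call lost without replicate 2 of serum return (adjusted p = 0.0597) or of second 2i (adjusted p = 0.0547), and Uhrf1, which brings Dnmt1 to newly copied DNA, 1.58-fold from 453 and 470 to 721 and 740 CPM. Tet1, an oxidase of methylcytosine, fell 1.5-fold, and Tet2 1.13-fold from 323 and 337 to 284 and 300 CPM. The Tet2 call was lost without replicate 1 of second 2i (adjusted p = 0.109) or replicate 2 of serum return (adjusted p = 0.0803). Zfp57, which keeps imprints methylated, rose 1.54-fold to 1160 ± 40 CPM. Tet1, Dnmt1 and Zfp57 were picked after their values were seen.

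Chromatin repressors showed large changes in a few subunits only. Of 27 Polycomb genes 11 rose and 10 fell (median 0.02). Cbx8, a chromodomain reader of Polycomb complex 1, rose 23.9-fold from 0.179 and 0.186 to 4.09 and 4.9 CPM. Bmi1, a ring finger subunit of the same complex, rose 4.25-fold from 9.45 ± 0.32 to 40.1 ± 2.6 CPM. Of the accessory subunits of Polycomb complex 2, Phf19 fell 9.25-fold from 25.3 and 24.8 to 2.83 and 2.58 CPM and Jarid2 2.41-fold from 779 ± 0.95 to 323 ± 3.3 CPM, whereas the catalytic Ezh2 fell 1.24-fold. Among 18 genes of H3K9 methylation and retroelement repression, 7 rose and 6 fell (median 0.04), and the methyltransferase Setdb1 rose 1.43-fold to 259 ± 4.6 CPM.

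Of 29 tested germline genes whose promoters are known to be held silent by methylation, 15 fell and 7 rose (median -0.7). Stra8, a gate to meiosis, fell 6.84-fold from 13 and 12.3 to 2.29 and 1.42 CPM, Mael, of the piRNA pathway, 5.17-fold from 21.6 and 18.5 to 3.81 and 3.95 CPM and Taf7l, a germ cell subunit of the general transcription machinery, 12.8-fold from 6.31 and 5.4 to 0.327 and 0.58 CPM. Dazl, an RNA-binding protein of germ cells, rose 1.76-fold to 28.4 ± 1.5 CPM and Fkbp6, a meiotic cochaperone, 4.01-fold to 12.9 ± 0.15 CPM, both picked after their values were seen. The list as a whole summed to 501 and 489 CPM in serum return and to 509 and 489 CPM in second 2i.

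Imprinted genes moved without a common direction for the paternally expressed ones, 7 up and 8 down of 23 (median 0.06). Dio3, a thyroid hormone deiodinase, rose 68.9-fold from 0.179 and 0.419 to 18.6 and 21.4 CPM, or 108-fold without replicate 2 of serum return, and Peg10, a retrotransposon-derived gene needed in placenta, fell 7.1-fold from 1850 and 1720 to 264 and 239 CPM. Of the maternally expressed genes 12 fell and 2, Copg2 and Tssc4, rose of 21 (median -0.78), the latter 1 without replicate 1 of serum return. Phlda2, a brake on placental growth, fell 46.3-fold from 14.3 and 13.5 to 0.218 and 0.369 CPM, Cdkn1c, a cell-cycle inhibitor, 10.9-fold from 7.17 and 8.14 to 0.708 and 0.686 CPM and the noncoding RNA H19 13.9-fold from 2.48 and 2.14 to 0.163 and 0.158 CPM. Meg3, a noncoding RNA of the same cluster as Dio3, fell 1.3-fold from 132 ± 8.6 to 102 ± 2.5 CPM.

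Lineage markers were at low levels with exceptions in each direction. Endoderm markers fell in 12 of 16 tested cases and rose in 2, among them Sparc, the latter 1 without replicate 1 of serum return or replicate 2 of second 2i, and the median was -1.53. All 22 endoderm markers together summed to 657 and 684 CPM in serum return and 470 and 474 CPM in second 2i, and 1 of them had no counts in each group. Gata6, a determinant of primitive endoderm, fell 15.7-fold from 5.88 and 6.09 to 0.218 and 0.527 CPM, or 26.7-fold without replicate 2 of second 2i, while Gata4 (2.43 and 2.25 CPM on average) and Sox17 (0.563 and 0.644 CPM) did not pass. Blood and endothelial markers fell in 8 of 12 and rose in 2, Kdr and Vwf (median -2.38), and all 16 summed to 113 and 114 CPM in serum return against 23.9 and 23.6 CPM in second 2i. 2 of the 16 had no counts in serum return and 5 none in second 2i. Robo4, a receptor of endothelium, fell 55.4-fold from 43.9 and 45.9 to 0.599 and 1 CPM, and Nos3, which makes nitric oxide in endothelium, 62.6-fold from 40.2 and 41.1 to 0.817 and 0.475 CPM. Tal1, a master factor of blood, stood at 0.825 and 1.07 CPM and had no counts in second 2i, at least 11.8-fold lower. In bulk RNA, fewer cells of a kind and less RNA per cell cannot be told apart.

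Fibroblast and feeder markers passed in few cases, with 3 down (Vim, Thy1 and Col1a1) and 1 up (Fbln1) of 8 tested (median -0.73), Fbln1 not called without replicate 1 of second 2i. 1 of the 15 had no counts in serum return and 3 none in second 2i. All 15 summed to 411 and 421 CPM in serum return and 218 and 224 CPM in second 2i, most of it Vim, an intermediate filament gene also expressed by ES cells, which fell 2.03-fold from 351 ± 10 to 173 ± 6.2 CPM. The Col1a1 call was lost without either serum return replicate or without replicate 2 of second 2i (adjusted p = 0.0752, 0.0757 and 0.14). Thy1, a surface marker, fell 33-fold from 23.1 and 21.4 to 0.872 and 0.475 CPM. The collagen Col1a2 did not pass, at 0.61 and 0.14 CPM in serum return and 0.599 and 0.158 CPM in second 2i, and the sign of its difference changed with the library left out (log2 -1.30 without replicate 1 of second 2i and 1.39 without replicate 1 of serum return). The part of other cell types in these falls was not tested.

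Primitive streak and mesoderm markers rose in 6 of 11 tested cases and fell in 1, Tbx6, or in 0 without replicate 1 of serum return (median 2.54), and 4 of them, T, Cdx1, Cdx2 and Nkx1-2, are Wnt targets or genes of the posterior embryo. A marker could pass the filter through its level in a 2i group alone, so these counts describe those that passed. Without the filter on low counts the median was 1.49. All 18 summed to 24.4 and 26.1 CPM in serum return and 81.1 and 96.3 CPM in second 2i. Gsc, a homeobox gene of the organizer, went from 2 counts in serum return to 4.14 and 5.12 CPM and Cdx2 from 2 counts to 1.09 and 1.42 CPM. Mixl1 (0.819 and 1.07 CPM on average) and Eomes (16.5 and 15.2 CPM) did not pass. Trophectoderm markers rose in 8 and fell in 5 of 14 (median 0.77). Tfap2a, a factor of trophectoderm and surface ectoderm, rose 12.7-fold from 3.73 and 4.79 to 53.8 and 53.6 CPM, and its relative Tfap2c 4.46-fold from 15.2 ± 2.1 to 67.4 ± 0.9 CPM, while Krt19, a simple keratin, fell 48.9-fold from 6.31 and 7.44 to 0.109 and 0.158 CPM.

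Neural markers were divided as well, 5 up and 4 down of 10 tested (median 0.03). The neurofilament genes Nefl and Nefm rose 31-fold and 47.3-fold, Nefl from 1.83 and 2.47 to 62.5 and 68.5 CPM and Nefm from 0.287 and 0.465 to 17.9 and 17.2 CPM. Tubb3, the neuronal tubulin, fell 4.31-fold from 44.4 and 46.5 to 10.5 CPM in both second 2i libraries, and Sox1, a neuroectoderm factor, 2.35-fold to 10.7 ± 0.55 CPM. The whole list of 19 summed to 87.6 and 96.2 CPM in serum return and 122 and 129 CPM in second 2i, and 7 and 5 members had no counts.

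Hox genes, the positional factors that Polycomb holds silent in ES cells, rose from near zero. Of 39 in the files 14 had no counts in serum return and 4 none in second 2i. 17 passed the filter, of which 16 rose, and the other, Hoxc6, held 0 counts in serum return and 2 in second 2i. A gene could pass the filter through its level in a 2i group alone, so these counts describe those that passed. The median log2 fold change was 3.29, equal to the fitted value of Hoxc6, or 2.72 with genes lacking counts at their bound. Without the filter on low counts it was 2.43. Hoxc13 rose 18.2-fold to 11.9 ± 0.22 CPM and Hoxb9 4.5-fold to 7.39 ± 0.59 CPM, both picked after their values were seen. Hoxc12 read 1 count in serum return and 1.47 and 1.53 CPM in second 2i, and Hoxd9 1 count against 0.926 and 1.37 CPM. All 39 together summed to 11 and 10.9 CPM in serum return and 50.5 and 52.5 CPM in second 2i.

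Of 7 tested Y-linked genes, 6 rose and Uty did not pass (median 0.97). Ddx3y, a helicase, rose 1.38-fold to 148 ± 14 CPM and Uba1y, a ubiquitin-activating enzyme, 2.3-fold from 13.9 and 12.7 to 35.5 and 25.9 CPM. The genes of the 2-cell-like state passed the filter in 9 of 21 cases, and 5 of these rose, a count that was 1 without replicate 2 of serum return and 1 with the DESeq2 Wald test. Zscan4a fell 2.84-fold, from 3.16 and 1.95 to 0.872 and 0.949 CPM, the only fall called in the list, where 2 were called without replicate 2 of serum return. They belong to families of near-identical copies, so their counts are uncertain.

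Central metabolism changed in enzymes that set glucose use and sterol supply. Of 25 glycolysis genes 15 fell and 6 rose (median -0.53). Slc2a1, the glucose transporter Glut1, fell 5.79-fold from 885 and 937 to 152 and 163 CPM. Pdk1, a pyruvate dehydrogenase kinase, fell 9.58-fold from 537 and 543 to 56.4 and 56.3 CPM. Slc16a3, the lactate exporter, fell 9.54-fold from 113 and 125 to 13.2 and 11.8 CPM. Every second 2i library was below every serum return library in these 3. Ldha, the muscle-type lactate dehydrogenase, fell 3.01-fold and Ldhb, the heart-type form, rose 2.46-fold, both picked after their values were seen. The gene sums were 11100 and 11300 CPM in serum return and 7360 and 7600 CPM in second 2i.

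Cholesterol genes rose together. Of 24 tested genes of its synthesis and uptake 22 rose and 1, Pmvk, fell (median 0.74). Sqle, squalene epoxidase, rose 2.48-fold from 87.9 and 84.7 to 211 and 217 CPM, and Ebp, a sterol isomerase, 2.51-fold from 19.2 and 19.8 to 46.8 and 51 CPM. Subunits of oxidative phosphorylation rose in 38 and fell in 9 of 80, by small amounts (median 0.15), with 2 large exceptions: Ndufa4l2, a hypoxia-induced subunit relative, fell 21.5-fold from 24.2 and 25.6 to 1.42 and 0.896 CPM and Cox4i2, a hypoxia-linked subunit form, went from 4.59 and 4.47 CPM to 0 and 0.211 CPM. Of 25 genes of serine synthesis and the integrated stress response 14 fell (median -0.33) and 2, Ddit3 and Asns, rose, or 1 without replicate 2 of either group. Mthfd2, a mitochondrial folate enzyme, fell 2.12-fold from 262 and 268 to 128 and 122 CPM and Slc7a5, an amino acid transporter, 2-fold from 915 and 941 to 462 and 465 CPM, while Atf4, the factor that drives many of them, did not pass (666 and 704 CPM on average).

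Several cell-cycle inhibitors rose and several drivers fell. Cdkn1a (p21) rose 4.03-fold from 30.7 and 34.1 to 123 and 138 CPM, the Ink4 gene Cdkn2a 9.94-fold from 1.65 and 1.49 to 14.9 and 16.6 CPM and Cdkn2c 9.5-fold from 0.395 and 0.326 to 3.6 and 3.43 CPM. The inhibitor Cdkn1c, given above with the imprinted genes, went the other way and fell 10.9-fold. Of 21 genes listed as cell-cycle inhibitors or p53 targets 10 rose and 7 fell (median 0.17), and Pmaip1 (Noxa), a trigger of apoptosis, fell 24.5-fold from 156 and 146 to 6.16 and 6.17 CPM. Of 29 cell-cycle drivers 14 fell and 8 rose (median -0.12). Myc fell 7.22-fold from 80.2 and 81.7 to 11.4 and 11 CPM, E2f2 5.74-fold to 12.4 ± 1 CPM and cyclin E1, Ccne1, 2.85-fold from 277 and 282 to 96.1 and 99.8 CPM.

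Adhesion and basement membrane genes counted 10 up and 13 down of 26 (median -0.28). Beside Col4a1, its partner Col4a2 fell 25-fold from 58.5 and 59.6 to 2.56 and 2.16 CPM, while the laminin-binding Nid1 rose 2.22-fold to 725 ± 13 CPM and E-cadherin, Cdh1, 1.64-fold to 341 ± 4.7 CPM. Targets of SRF and YAP, factors of the cytoskeleton and of cell density, numbered 7 up and 4 down of 16 (median 0.18, or -0.03 without the filter on low counts). By at least 2-fold 4 rose and 2 fell, and the members named here are all among those that rose. Cyr61 rose 3.69-fold from 7.68 and 7.26 to 28.4 and 26.9 CPM, Ctgf 2.68-fold from 19.4 and 17.2 to 49.7 and 48.8 CPM and Amotl2, another YAP target, 2.73-fold to 210 ± 8.1 CPM, and both replicates of second 2i exceeded those of serum return in all 3. Ctgf, Amotl2, Nid1 and Cdh1 were picked after their values were seen. Of 8 tested targets and partners of the aryl hydrocarbon receptor 3 rose and 1 fell (median 0.9), among them the receptor gene Ahr, 4.67-fold to 6.28 ± 0.68 CPM, and Nqo1, a quinone reductase, 3.27-fold to 86.7 ± 2 CPM.

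**Figure D3:**
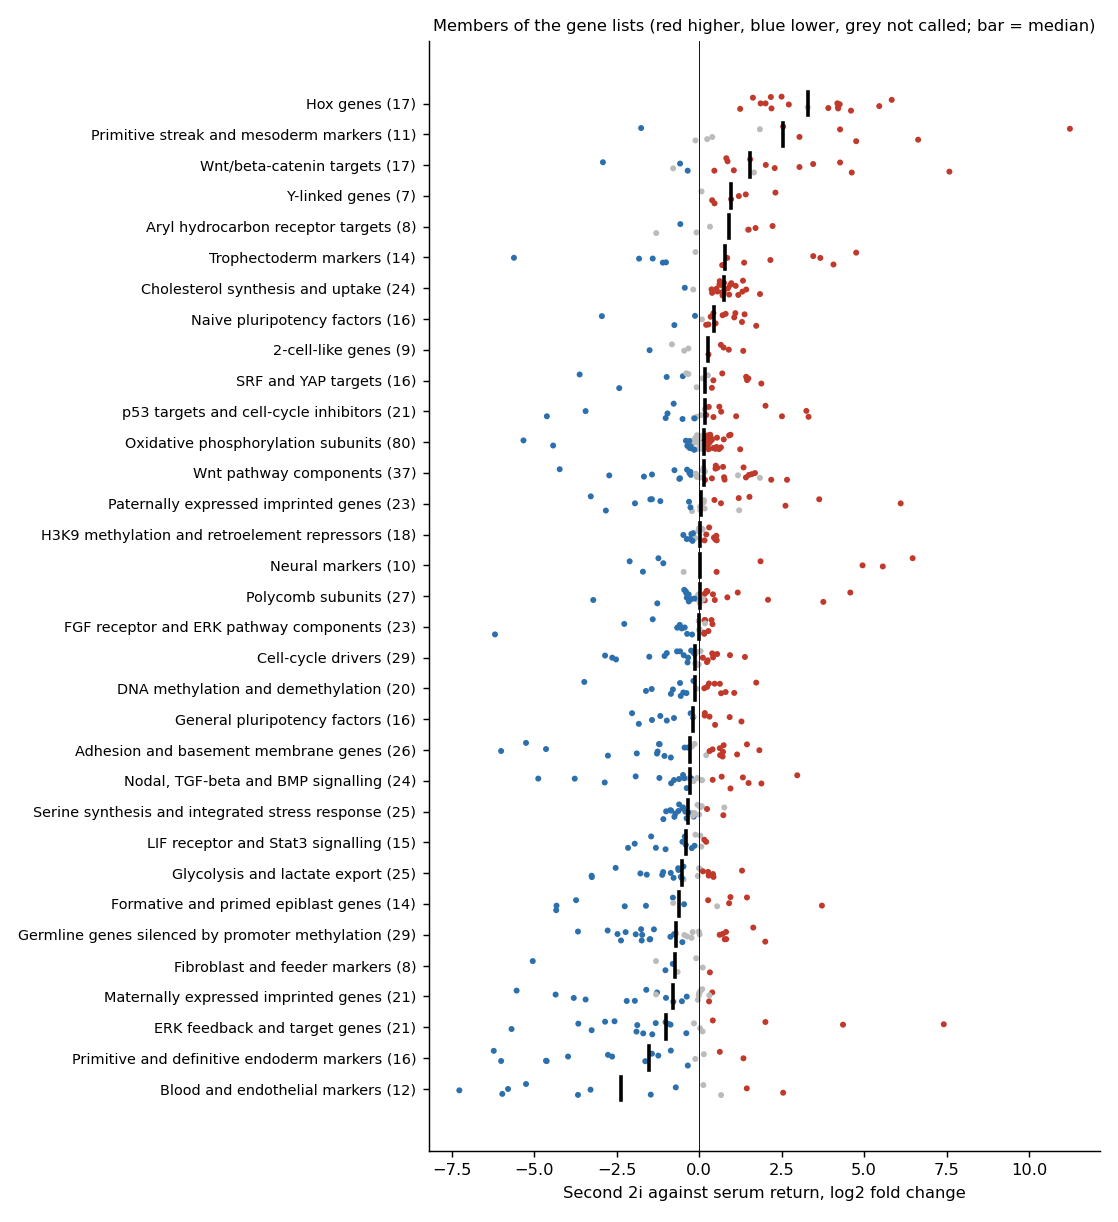
Log2 fold change of second 2i against serum return (x axis) for each tested member of 33 gene lists (number tested in brackets), in order of the list median (black bar). Red points were called higher, blue points lower and grey points not called. In this fit Hox genes have the highest median, 3.29, and blood and endothelial markers the lowest, -2.38. With only the 4 libraries compared, the Hox median was 2.61, below the 3.05 of primitive streak and mesoderm markers.

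The second entry into 2i was then set beside the first. Second 2i against serum return and first 2i against serum share no library. In the first round 4996 genes rose (35.1%) and 4956 fell (34.9%). 7328 genes were called in both rounds, 6704 of them in the same direction, which is 71.8% of the calls of the second round and 67.4% of those of the first, and 624 in opposite directions. Across genes, which are not independent, the log2 fold changes of the rounds had a Pearson r of 0.83 and a Spearman rho of 0.737. Of the genes that changed by at least 2-fold, 2354 did so in the same direction in both rounds (75.1% and 64.6%) and 34 in opposite directions.

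The test of the difference between the rounds, as an interaction in the same fit, called 5598 genes (39.4%). The second response was higher for 2617 (18.4%) and lower for 2981 (21%), and the difference was at least 2-fold for 1236. The largest differences upward were those of the early genes. Egr1 fell 63.3-fold in the first round, from 26.6 and 28.5 to 0.421 and 0.438 CPM, and rose 4.02-fold in the second, a log2 difference of 7.99 (SE 0.17, edgeR adjusted p = 8.01e-18). Fos fell 2.87-fold in the first round, from 4.5 and 5.58 to 1.82 and 1.66 CPM, and the difference was 5.88 (SE 0.21, edgeR adjusted p = 1.08e-13). Fosb was near its floor in the first round, at 0 and 0.261 CPM in serum and 0.14 and 0.0487 CPM in first 2i, and its difference of 7.78 was not called without replicate 2 of serum, which held all of its serum counts (3.35, adjusted p = 0.928).

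Several genes that 2i lowered were lowered less in the second round. Spry4 reached 1.92 and 1.51 CPM in first 2i against 9.1 and 8.38 CPM in second 2i, from 406 and 408 CPM in serum, a log2 difference of 2.2 (SE 0.15, edgeR adjusted p = 1.61e-09). Etv4 reached 4.49 and 4.72 CPM against 22.4 and 22.3 CPM (difference 2.27) and Myc fell to 4.66 CPM on average against 11.2 CPM (difference 1.48). Of the 21 ERK feedback and target genes the second response was higher, that is less negative or positive, for 13. Dnmt3l reached 4.44 and 3.94 CPM in first 2i against 33.5 and 36.6 CPM in second 2i (difference 2.98, edgeR adjusted p = 1.16e-13) and Dnmt3b 28.6 CPM against 58.3 CPM on average (difference 1.56). Tet2, which fell 2.25-fold in the first round, had a difference of 1. Uhrf1 was not among the lowered genes, since it did not pass in the first round and rose in the second (difference 0.72). Robo4 held 4 counts in first 2i and 30 in second 2i (difference 3.29, and 4.24 without replicate 2 of first 2i). Spry4, Etv4 and Dnmt3l stood higher still in long 2i, at 20.3 and 19.1, 135 and 141, and 83 and 84.2 CPM. Myc at 9.45 CPM and Robo4 at 0.306 CPM on average in long 2i lay between first and second 2i. For these genes, levels above those of first 2i were thus not particular to second 2i.

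Other genes were moved more strongly the first time. Ctnnd2, a neural catenin, rose 77.3-fold in the first round to 15.7 and 16.1 CPM and 8.89-fold in the second to 5.45 and 6.17 CPM (difference -3.12, edgeR adjusted p = 2.01e-05). Calb2, the calcium-binding protein calretinin, reached 5.99 and 7.11 CPM in first 2i and 0.599 and 0.896 CPM in second 2i (difference -4.45), where its rise of 2.28-fold was not called without replicate 1 of serum return (adjusted p = 0.208) or replicate 2 of second 2i (adjusted p = 0.217). Calr4, a calreticulin relative, had a difference of -3.17. Cyp1a1, the cytochrome P450 induced through the aryl hydrocarbon receptor, stood at 7.16 and 6.23 CPM in first 2i and at 51.5 and 48.4 CPM in long 2i, but at only 0.599 and 0.211 CPM in second 2i, against 0.215 and 0.0465 CPM in serum return (not called, adjusted p = 0.0543). The Cyp1a1 call was gained without replicate 1 of serum return (adjusted p = 0.0191) or replicate 2 of second 2i (adjusted p = 0.0125), and not without replicate 1 of second 2i (adjusted p = 0.608). With no counts in serum, its rise in the first round was at least 89.5-fold. Axin2 rose 25.7-fold in the first round from a serum level of 2.68 CPM and 11-fold in the second from 7.77 CPM (difference -1.23), with similar levels at the end, 68.7 ± 2.6 and 85.3 ± 0.0016 CPM. Cdkn1a and Cdkn2a had differences of -1.54 and -2.37. Dppa3 reached 12.6 ± 0.53 CPM in first 2i against 1.41 ± 0.46 CPM in second 2i, and its difference of -2.03 was not called without replicate 1 of serum return (-0.87, adjusted p = 0.491).

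Other genes had different starting levels or directions. Taf7l stood at 1.53 and 2.34 CPM in serum and 1.87 and 2 CPM in first 2i, but fell 12.8-fold from serum return to second 2i (difference -3.68, edgeR adjusted p = 1.19e-06). Gata6 had a serum level of 1.15 ± 0.14 CPM, a serum return level of 5.99 ± 0.15 CPM and a level under 1 CPM in both 2i groups (difference -2.98, or -3.75 without replicate 2 of second 2i). Cdx1 rose 2.99-fold in the first round to 5.99 ± 0.41 CPM and 8.22-fold in the second to 46.2 ± 7.2 CPM (difference 1.46). Id3 fell from 44.6 to 19.2 CPM on average in the first round and rose in the second (difference 2.71). Rasl11a, a small GTPase, fell 35.6-fold in the first round, to 6 counts, and 4.16-fold in the second (difference 3.1, or 4.55 without replicate 1 of first 2i and 2.42 without replicate 2).

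By list, the difference was uneven for oxidative phosphorylation, where 22 genes rose and 37 fell in the first round and the second response was higher for 37 of 80 and lower for 2. It was lower for 16 and higher for 1 of 25 genes of serine synthesis and stress response, lower for 14 and higher for 2 of 29 germline genes, lower for 12 and higher for 3 of 21 p53 targets and cell-cycle inhibitors, and higher for 8 and lower for 1 of 16 SRF and YAP targets. The second response was also higher for 13 and lower for 0 of 24 cholesterol genes, and lower for 5 and higher for 0 of 7 Y-linked genes. Over all tested genes the shares were 18.4% higher and 21% lower.

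**Figure D4:**
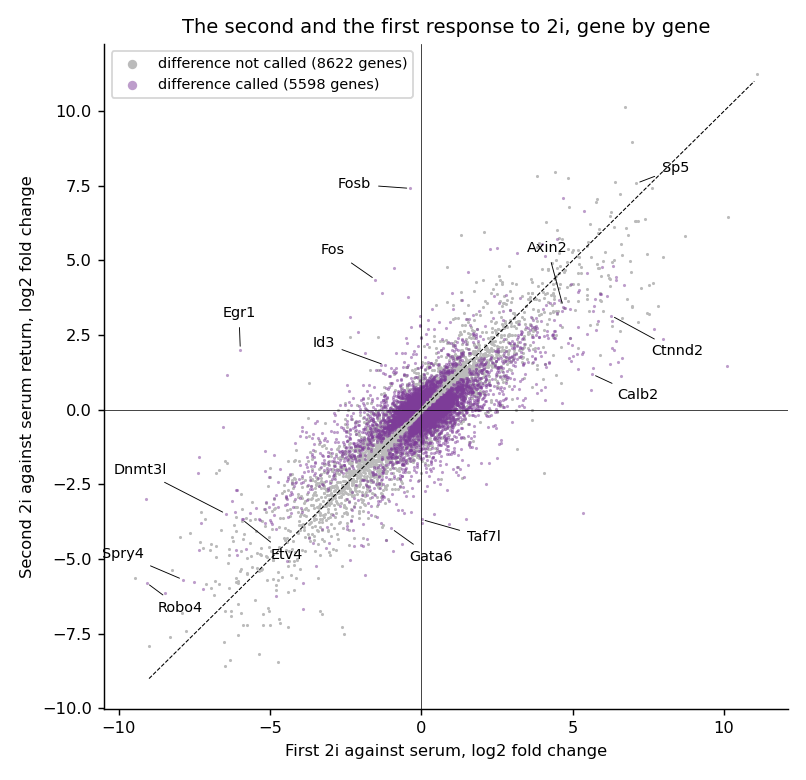
Log2 fold change of first 2i against serum (x axis) and of second 2i against serum return (y axis) for the 14220 tested genes, with purple points where the difference between them was called (5598 genes) and grey points elsewhere. The dashed line marks equal responses, and Egr1, Fos and Fosb lie at 2.01, 4.36 and 7.41 on the y axis, above the line by the differences given in the text.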

How the data were processed

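Total RNA of cultured mouse ES cells was sequenced as 10 libraries, and for each gene the authors deposited a raw read count. The tools named, per the submitters' processing notes, are HTSeq 0.5.4p5, TopHat2 2.0.4, CASAVA 1.8.2 and an unversioned DESeq2, and the build is mm9. Not given in the sources used here: annotation, strand setting, read layout. Groups come from the labels, and replicates were numbered in accession order.

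The 5 summary categories were dropped from each table of 24015 genes. Among all records 33.41 to 36.51% were reads aligned to more than 1 place and were counted for no gene, so genes with near-identical copies are uncertain, as are overlapping genes. The test was edgeR 4.0.16 under R 4.3.3: filterByExpr by group (minimum count 10, minimum total 15) left 14220 genes, with TMM factors and a robust quasi-likelihood fit of all 10 libraries on the group (5 residual degrees of freedom). Contrasts were second 2i against serum return, first 2i against serum, and the difference between them, two-sided, with Benjamini-Hochberg adjustment over the tested genes and a threshold of 0.05. On simulated counts the test recovered 79.2% of 1.5-fold, 96% of 2-fold, 94% of 4-fold and 100% of 8-fold changes of second 2i against serum return, with 11 false calls, among 13843 genes. The simulation gave every gene the same relative spread beyond counting error. It changed only 48 to 50 genes at each fold, up and down alike, far fewer than were called here. These rates therefore describe the simulation, and those for the real libraries were not measured.

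The text names genes by a rule, part of which it uses: the 12 with the largest fold change each way that passed, with 5 CPM or more in whichever group was higher and 1 direction in all 4 library pairs, leaving out model names, ribosomal proteins and histones, the 6 each way with the largest difference between the rounds, up to 4 called members of each of 34 gene lists, and a set of key genes. Others are said to have been picked after their values were seen, or are given only by fold as list members. The members, lists and rule were chosen with earlier results of these data known. For a group without counts the fold is a bound, taken with 3 counts in that group, and with 1 to 3 counts no fold is given. Promoter sequences were matched by symbol to a RefSeq table of build GRCm38.p6, and since the genome at hand was not of the build used for the counts, no other coordinates are given. As alternatives, edgeR was run with size factors from DESeq2, without the low-count filter, on just the libraries compared, with the title series as a replicate block, without Rn45s and without each library in turn, and the Wald test of DESeq2 1.42.0 was run beside it.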

Additional observations from a re-analysis of the deposited data

Results flagged for a closer look

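The response to 2i differed between the second and the first round for 5598 genes by the interaction test in edgeR, and the differences that the text reports are collected here as log2 values, second minus first. The second response was the higher for Egr1 by 7.99, Fosb by 7.78, Fos by 5.88, Robo4 by 3.29, Rasl11a by 3.1, Dnmt3l by 2.98, Id3 by 2.71, Etv4 by 2.27, Spry4 by 2.2, Dnmt3b by 1.56, Myc by 1.48, Cdx1 by 1.46, Tet2 by 1 and Uhrf1 by 0.72. It was the lower, with differences of -4.45 for Calb2, -3.68 for Taf7l, -3.17 for Calr4, -3.12 for Ctnnd2, -2.98 for Gata6, -2.37 for Cdkn2a, -2.03 for Dppa3, -1.54 for Cdkn1a and -1.23 for Axin2. All of these were called, Fosb not without replicate 2 of serum and Dppa3 not without replicate 1 of serum return, as given above. With 2 libraries a group, no check for outlying samples was made.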

How the results depend on the processing

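The counts of called genes over each whole comparison kept within 1.5 times of their values under every alternative run, while some counts within gene lists moved further. For second 2i against serum return (9335) the count ran from 8323 with the DESeq2 Wald test to 10216 with the title series as a replicate block, and from 8181 to 8438 with 1 library left out, where the lone library was assumed to vary like the other groups. Genes higher ran from 4060 to 5065 and lower from 4121 to 5151, and those of at least 2-fold from 1194 to 1367 higher and from 1683 to 1902 lower. First 2i against serum (9952) ran from 9064 to 10705. The difference between the rounds (5598) ran from 4371 without replicate 1 of serum return to 7080 with the title series as a replicate block. The titles carry 2 series of names of unstated meaning, 1 library of each group in each. Libraries of 1 series deviated from their group means with correlations of 0.0994 to 0.168, 0.145 for second 2i and serum return. These were low but all positive, and whether libraries of a series share more than a name was not tested. Since the labels do not say what the series mean, this pairing was not used in the main fit. Higher genes made up 48.8 to 49.9% of the calls of second 2i against serum return over all settings. No called gene that was checked reversed its direction, and the calls of checked genes that 1 left-out library ended are given beside the genes or their lists. Other list counts also shrank with 1 library left out, that of oxidative phosphorylation genes that rose among them, and are not all given. The DESeq2 Wald test did not call Spred3 (adjusted p = 0.136), Otx2 (0.0561), Socs2 (0.0556), Col1a1 (0.103) or Calb2 (0.0594), and called Cyp1a1 (0.0456). With the replicate block the calls of Etv5 (adjusted p = 0.00182), Atf4 (0.0109) and Cyp1a1 (0.0287) were gained. Without the filter on low counts 5 and not 3 fibroblast and feeder markers fell, and Cyp1a1 was called (0.035). With 2 libraries a group, changes under 1.5-fold and genes with few counts are the least certain.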
